A study of Mus musculus with 3 samples.

Results

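The C/EBP transcription factors Cebpa, Cebpb, Cebpd and Cebpg were described in single-cell RNA sequencing of mouse lung. Members were the rows of the count matrices whose gene symbol equals one of these 4 names, and 3 of the 4 were found among the 27998 genes (Cebpa, Cebpb and Cebpg). Cebpd is not analysed here. Cebpb was chosen by its measured counts in these same 3 libraries, so its values are a description and carry no test. The study held 3 libraries, 1 per group: lung after 17 Gy to the thorax in FLASH mode (an ultra-high dose rate), lung after 17 Gy in conventional mode (CONV), and lung of a non-irradiated control (NI). All came from C57BL/6 females of 10 to 12 weeks, and the irradiated animals received 4.5 MeV electrons under isoflurane. Lungs were digested with enzymes, filtered and freed of red cells, and the suspensions were loaded on the 10x Genomics 3' system, where each counted molecule carries a unique molecular identifier (UMI). How many mice made up a library, how long after irradiation lungs were taken and at what hour is not stated in the sources used here. With 1 library per group no difference has a replicate check, and every interval below is a 95% interval for counting error only.

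C/EBP proteins are basic leucine zipper (bZIP) factors that bind DNA as pairs, with each other or with other bZIP factors. C/EBP alpha drives the maturation of myeloid precursors and of the surfactant-making epithelium, and C/EBP beta is induced by inflammatory and stress signals and takes part in macrophage function, the survival of Ly6C-low monocytes and the acute phase response. C/EBP gamma lacks a classical activation domain, pairs with the other members and with ATF4, and acts in amino acid and redox stress programmes.

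The 3 libraries held 2394 barcodes in FLASH, 2507 in CONV and 1761 in NI, with totals of 5498902, 7463259 and 7114360 UMIs in the same order. FLASH was the shallowest per barcode, with medians of 1776.5 UMIs in FLASH, 2351 in CONV and 2960 in NI. Clustering gave 26 clusters in 25 cell classes, named as "like" a type from marker genes, and 16 classes had at least 20 cells in every library. Markers were among the leading genes of the named clusters, for example Sftpc in AT2-like cells and Chil3 and Marco in alveolar macrophage-like cells. Ccr2 and Ly6c2 were among those of classical monocyte-like cells. The cluster named type 2 dendritic-like was led by Ccl17, Ccl22, Cd209a and Siglech, of which Ccl22 and Siglech were listed as markers of other dendritic types. NI also held 134 thymocyte-like cells and 221 dividing lymphoid cells led by 2810417H13Rik, and neither class had a cell in FLASH or CONV. No more than 7 cell barcodes were shared by any pair of libraries.

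Cebpb is a gene of 1 exon and 1504 bases at chr2:167688915-167690418 on the plus strand of mm10, and Tmem189 overlaps it on the opposite strand. Cebpa lies at chr7:35119293-35121928 on the plus strand, and Cebpg at chr7:35046422-35056573 on the minus strand, 62720 bases away. The 250 bases before the start of Cebpb and of Cebpa are shown because Cebpb differed between libraries in most cell classes and Cebpa in few. They are from RefSeq, build GRCm38.p6, plus strand, at chr2:167688665-167688914 and chr7:35119043-35119292, and capitals mark the motif matches described next.
Cebpb: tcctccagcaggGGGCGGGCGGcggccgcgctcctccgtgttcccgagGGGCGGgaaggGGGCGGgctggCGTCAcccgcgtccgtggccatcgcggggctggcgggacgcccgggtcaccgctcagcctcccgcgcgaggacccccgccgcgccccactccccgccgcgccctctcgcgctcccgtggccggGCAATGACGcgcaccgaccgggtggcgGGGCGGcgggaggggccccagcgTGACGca
Cebpa: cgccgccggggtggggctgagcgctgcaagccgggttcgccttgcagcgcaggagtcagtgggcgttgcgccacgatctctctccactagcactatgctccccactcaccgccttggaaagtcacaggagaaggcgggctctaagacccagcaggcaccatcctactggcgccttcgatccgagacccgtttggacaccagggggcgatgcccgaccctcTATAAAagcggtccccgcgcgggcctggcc
The Cebpb stretch is 81.6% G and C, and the Cebpa stretch 66.4%. Both strands were searched for TGACG (the core of the cyclic AMP response element, CRE), TGACGTCA (the full CRE), CCAAT (the NF-Y element), GCAAT (a core bound by C/EBP factors), GGGCGG (the GC box), TATAAA (the TATA box), CACGTG (the E-box) and TTCNNNGAA (the STAT element). Cebpb held 3 TGACG cores, of which the one at -180 from the start reads CGTCA on the plus strand and the other 2 lie at -53 and -7. It also held a GCAAT core at -57, which shares letters with the TGACG at -53, and 5 GC boxes, of which the first 2 share letters. Cebpa held a TATAAA at -30 and no other of these letters. Of 32817 promoter stretches of this length, 17.7% held TGACG, 23.1% GCAAT, 32.7% GGGCGG and 12.4% TATAAA, against 1.55% with TGACGTCA, 33.8% with CCAAT, 6.02% with CACGTG and 7.01% with TTCNNNGAA. A match is a description of letters and not evidence of binding.

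Cebpb stood higher in FLASH and in CONV than in NI in each of the 16 classes compared, by the least in alveolar macrophage-like cells. A level is the summed UMI count of a gene in a class per 1000000 UMIs of that class (CPM). A ratio was called where it was at least 2-fold either way, with at least 20 UMIs in the 2 libraries together. By that rule Cebpb was higher in FLASH than in NI in 12 of 13 classes, where 4.63% of all gene and class pairs were called higher, and higher in CONV than in NI in 16 of 16 classes, where 5.65% were. Cebpb was lower in 0 classes in both comparisons, against 5.82% and 5.39% of all pairs for FLASH and CONV. These 2 comparisons share the NI library, and since Cebpb was picked for this contrast nothing is read from the counts.

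Among the 16 classes, the monocyte classes held the highest levels in FLASH and in CONV. In classical monocyte-like cells, the Ly6c2-positive cells that blood delivers to tissue, Cebpb stood at 3065 CPM in FLASH (2853 to 3288), 4661 CPM in CONV (4420 to 4912) and 158 CPM in NI (92.2 to 253), on 775, 1399 and 17 UMIs in 115, 114 and 27 cells. The 3 intervals did not overlap, and both irradiated libraries lay far above the control. The ratio was 19.4 for FLASH to NI (12.0 to 33.4) and 29.5 for CONV to NI (18.3 to 50.7). In non-classical monocyte-like cells, the patrolling Treml4-positive cells, Cebpb stood at 4224 CPM in FLASH, 5420 CPM in CONV and 524 CPM in NI, which gave ratios of 8.06 (5.91 to 11.3) and 10.3 (7.61 to 14.4) for FLASH and CONV to NI. This class had the top level of the 16 in FLASH and in CONV.

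Macrophages split into a class with a low and a class with a high control level. Interstitial macrophage-like cells, marked by C1qa, had 1338 CPM in FLASH, 1798 CPM in CONV and 93.6 CPM in NI, the last on 13 UMIs, with ratios of 14.3 (8.22 to 27.2) for FLASH to NI and 19.2 (11.1 to 36.4) for CONV to NI. Alveolar macrophage-like cells, the resident cells of the air space, had 2105 CPM in FLASH, 2185 CPM in CONV and 1065 CPM in NI. They had the top level in NI, and their ratios of 1.98 (1.72 to 2.28) for FLASH and 2.05 (1.79 to 2.36) for CONV lay just below and just above the 2-fold line. Of all Cebpb UMIs of the kept cells, 4117 in FLASH, 6713 in CONV and 424 in NI, alveolar macrophage-like cells carried 21.6% in FLASH, 15.03% in CONV and 61.3% in NI. Type 2 dendritic-like cells, which present antigen, had 11 Cebpb UMIs in FLASH, 58 in CONV and 0 in NI, so CONV stood at least 29.6-fold above a floor of 3 counts in NI. The FLASH to NI pair of this class fell short of 20 UMIs.

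The share of cells with a Cebpb UMI was compared after each cell was thinned to 1000 UMIs, which left out 10 shallower FLASH cells and 0 cells of CONV and NI. It was 93.0% in FLASH, 92.1% in CONV and 18.5% in NI for classical monocyte-like cells, where the unthinned shares were 98.3%, 100.0% and 51.9% and the median depths 2154, 2576.5 and 3941 UMIs. Cells with 3 or more thinned Cebpb UMIs made up 60.0% of classical monocyte-like cells in FLASH, 74.6% in CONV and 0% in NI. In FLASH and in CONV the signal thus lay in most cells of the class. For non-classical monocyte-like cells the thinned share was 99.0% in FLASH, 98.2% in CONV and 42.9% in NI, and for alveolar macrophage-like cells 83.6%, 88.8% and 60.0%. B-like cells, taken as the comparison class because they had little Cebpb in the control, had 10.4% in FLASH, 13.7% in CONV and 0.870% in NI, at median depths of 1252, 1775 and 1909.5 UMIs.

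**Figure D1:**
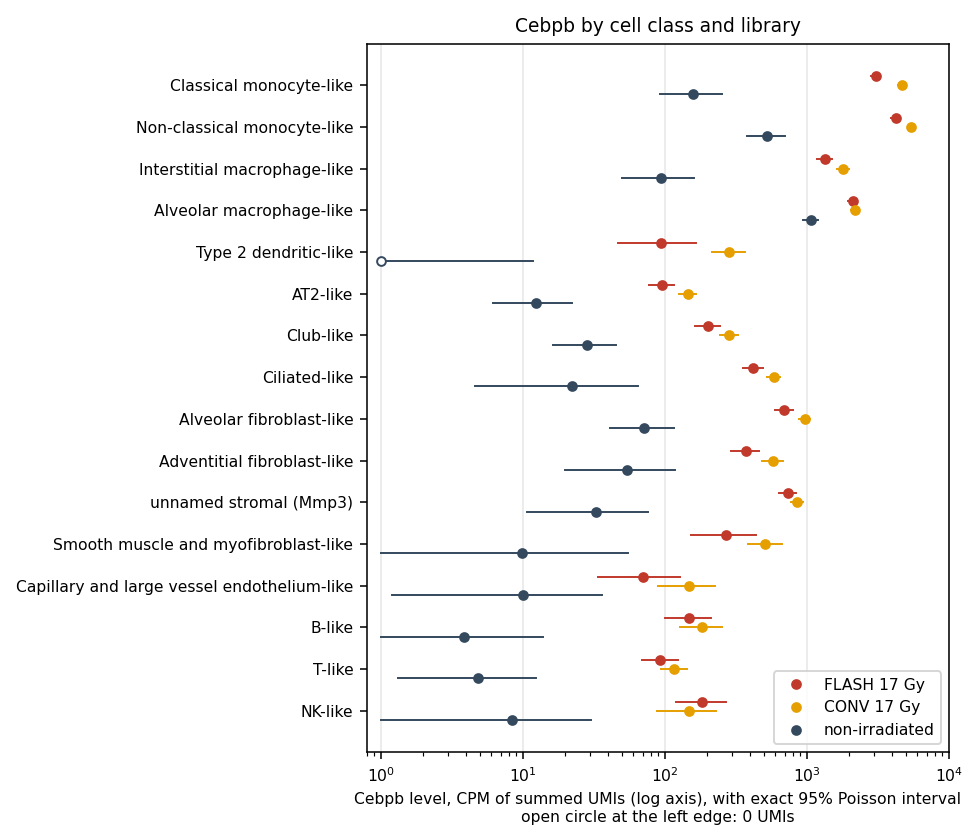
Cebpb level in CPM (log axis) in the 16 classes with at least 20 cells in every library, with exact 95% Poisson intervals, for FLASH (red), CONV (orange) and NI (dark blue). The NI point lies left of both irradiated points in every class, and alveolar macrophage-like cells, at 2105, 2185 and 1065 CPM, show the smallest gap.

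**Figure D2:**
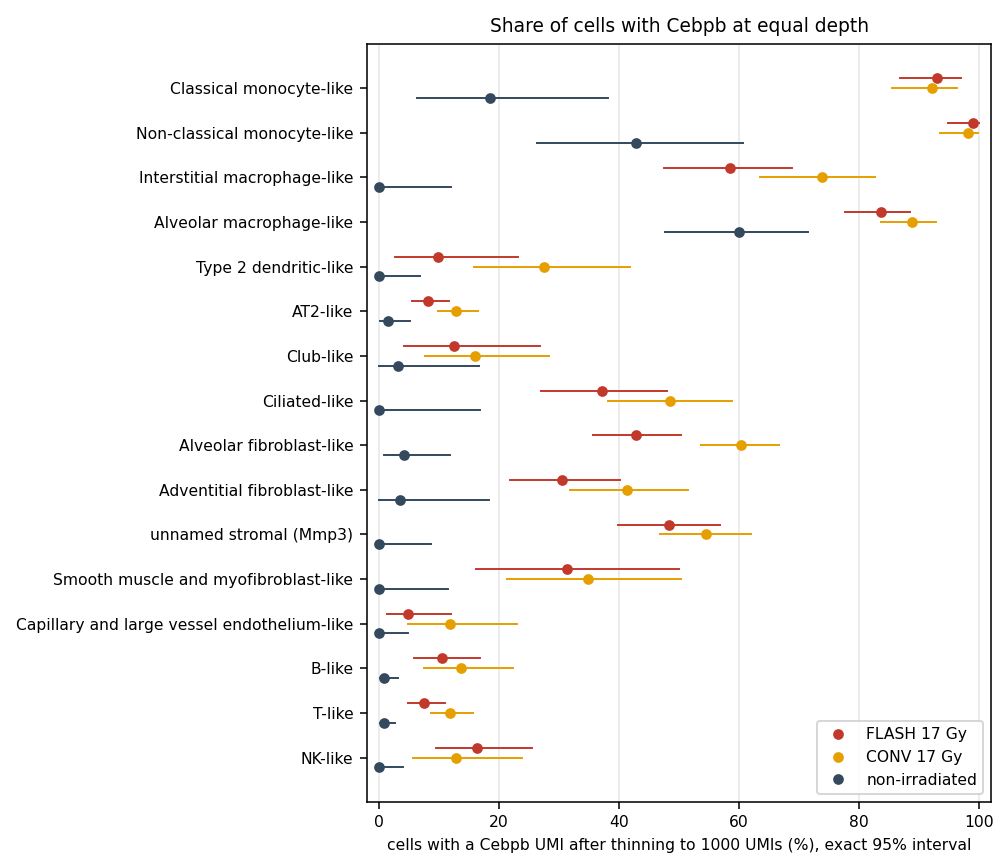
Percentage of cells with a Cebpb UMI after thinning each cell to 1000 UMIs, with exact 95% Clopper-Pearson intervals, by class and library. Monocyte-like classes reach at least 92.1% in FLASH and CONV, while most NI points outside the myeloid classes lie near 0%.

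Some classes had fewer than 20 cells in a library, and among them neutrophil-like and AT1-like cells also had irradiated levels above the control level. Neutrophil-like cells, of which NI held 13, had 3994 CPM in FLASH, 3603 CPM in CONV and 117 CPM in NI. AT1-like cells, the flat gas exchange epithelium, had 132 CPM in FLASH, 386 CPM in CONV and 0 UMIs in the 11 NI cells. An unnamed myeloid class led by Saa3 had 267 Cebpb UMIs in FLASH, 159 in CONV and 2 in NI. In FLASH it held 6.49% of the Cebpb UMIs and 0.8% of the kept cells. Its share of the kept cells was 0.336% in CONV and 0.117% in NI. Cebpb UMIs in FLASH, CONV and NI were 26, 15 and 1 in basophil and mast-like cells and 24, 52 and 7 in mesothelial-like cells. Lymphatic endothelium-like cells had 5, 45 and 0, and made up 0.533%, 0.755% and 0.0587% of the kept cells. The UMI counts of these small classes depend on their cell numbers too. Aerocyte-like capillary cells had 0 Cebpb UMIs in all 3 libraries, with 18, 15 and 17 cells in FLASH, CONV and NI, and the upper bounds of their levels were 137, 148 and 65.5 CPM.

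In the airway and alveolar epithelium Cebpb was lower than in the monocyte and macrophage classes. Ciliated-like cells had 420 CPM in FLASH, 585 CPM in CONV and 22.4 CPM in NI, the last on 3 UMIs, with ratios of 18.8 (6.30 to 92.1) for FLASH to NI and 26.2 (8.87 to 128) for CONV to NI. Both irradiated libraries were above the control, but thinned to equal depth the NI cells held 0 UMIs, so the ratios there were at least 3.45 and at least 4.26 against a floor of 3 counts in NI. Club-like cells, the secretory cells of the airway, had 201 CPM in FLASH, 285 CPM in CONV and 28.2 CPM in NI, with ratios of 7.11 (4.22 to 12.7) and 10.1 (6.14 to 17.7) for FLASH and CONV to NI. Taken as a mean over cells, the same ratios were 3.45 and 4.36. AT2-like cells, which make surfactant, had 95.2 CPM in FLASH, 145 CPM in CONV and 12.5 CPM in NI, and ratios of 7.65 (4.10 to 15.8) and 11.7 (6.40 to 23.7).

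In the stroma the Mmp3-led class, left unnamed, had 734 CPM in FLASH, 854 CPM in CONV and 32.8 CPM in NI, with ratios of 22.3 (9.42 to 69.6) for FLASH and 26.0 (11.1 to 80.5) for CONV. Alveolar fibroblast-like cells, the Tcf21-positive fibroblasts of the gas exchange region, had 695 CPM in FLASH, 968 CPM in CONV and 71.9 CPM in NI. Their ratios were 9.66 (5.80 to 17.2) and 13.5 (8.20 to 23.7), and 17.4 and 24.7 after thinning. Adventitial fibroblast-like cells, the Pi16-positive cells around airways and vessels, had 372 CPM in FLASH, 577 CPM in CONV and 53.9 CPM in NI. Among the 16 classes these 3 stromal classes and ciliated-like cells came directly below the monocytes and macrophages in FLASH and in CONV, and the Mmp3-led and alveolar fibroblast-like classes had overlapping intervals there. Smooth muscle and myofibroblast-like cells had 16 UMIs in FLASH, 53 in CONV and 1 in NI, and the CONV to NI ratio of 52.2 (8.97 to 2100) rests on that 1 UMI. After thinning NI held 0 UMIs there, and the ratio was at least 5.65 against the same floor of 3 counts. Capillary and large vessel endothelium-like cells had 70.2 CPM in FLASH, 148 CPM in CONV and 9.99 CPM in NI, on 10, 20 and 2 UMIs.

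Lymphoid classes carried low but non-zero Cebpb in the irradiated libraries. B-like cells had 148 CPM in FLASH, 184 CPM in CONV and 3.84 CPM in NI, with ratios of 38.5 (9.81 to 332) and 47.9 (12.3 to 410) on 2 NI UMIs. T-like cells had 93.2 CPM in FLASH, 117 CPM in CONV and 4.85 CPM in NI, and NK-like cells 183, 148 and 8.36 CPM. The T-like cells of FLASH and CONV lay mostly in a Dapl1-led cluster and those of NI mostly in an Itm2a-led one. In the Dapl1-led cluster alone, an alternative chosen after seeing the data, the ratios were 14.7 for FLASH and 17.9 for CONV.

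RNA released from other cells can give such UMIs, and some transcripts of cell types that a class should lack also moved with the groups. Sftpc, the surfactant gene of AT2 cells, had a median of 2348 CPM in FLASH, 3365 CPM in CONV and 973 CPM in NI over the 15 classes other than AT2-like. Mgp, a matrix gene of the stroma, had medians of 352, 434 and 73.9 CPM over 11 classes, and S100a8, a neutrophil gene, 216, 151 and 38.5 CPM over 16 classes, in FLASH, CONV and NI. Scgb1a1, a gene of Club cells, differed less, with medians of 7452, 7627 and 5253 CPM over 14 classes. The part of free RNA in the Cebpb values was not tested. Set against the B-like level of the same library, Cebpb was higher beyond counting error in 8 of the 15 other classes in FLASH, in 11 in CONV and in 8 in NI. The excess over B-like cells was 20.7-fold in FLASH, 25.3-fold in CONV and 41.2-fold in NI (9.77 to 367) for classical monocyte-like cells. For alveolar fibroblast-like cells it was 4.69-fold, 5.26-fold and 18.7-fold (4.40 to 168). The NI values rest on 2 B-like UMIs, and their intervals hold the FLASH and CONV values. B-like cells were also chosen for their low control level, so no change of the excess between libraries is read. Of the classes called against NI, 7 in FLASH and 11 in CONV also stood above the B-like level. AT2-like cells did not, at 0.642 of it in FLASH (0.426 to 0.994) and 0.790 in CONV (0.554 to 1.16), so no Cebpb expression of AT2-like cells is read from these libraries. T-like and NK-like cells in both libraries, Club-like cells in FLASH, at 1.35 (0.895 to 2.10), and endothelium-like cells in CONV were called against NI and were not above the B-like level either.

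Most UMIs of Cebpa, the factor of epithelial and myeloid maturation, lay in AT2-like cells, at 64.9% in FLASH, 62.4% in CONV and 59.3% in NI. There it stood at 304 CPM in FLASH (271 to 339), 266 CPM in CONV (241 to 293) and 166 CPM in NI (141 to 196). The ratios were 1.82 (1.50 to 2.23) for FLASH to NI and 1.60 (1.32 to 1.94) for CONV to NI, above 1 beyond counting error but short of 2-fold. Thinned shares of AT2-like cells with a Cebpa UMI were 28.3% in FLASH, 21.3% in CONV and 16.3% in NI. In alveolar macrophage-like cells Cebpa had 156 CPM in FLASH, 217 CPM in CONV and 192 CPM in NI. Both ratios to NI, 0.812 (0.550 to 1.21) and 1.13 (0.788 to 1.63), had intervals that hold 1. By CPM these cells had the top level of the 16 classes in NI, and AT2-like cells had it in FLASH and in CONV. The intervals of AT2-like and alveolar macrophage-like cells overlapped in CONV and in NI.

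Cebpa was called higher in 2 of 6 classes for FLASH to NI and in 2 of 6 for CONV to NI, and lower in 0, read against the same 4.63% and 5.65% of all pairs. The 2 classes were the same, and both rest on few control UMIs. Classical monocyte-like cells had 24 Cebpa UMIs in FLASH, 22 in CONV and 1 in NI, with ratios of 10.2 (1.66 to 419) and 7.88 (1.27 to 325). Ciliated-like cells had 61.7 CPM in FLASH, 65.4 CPM in CONV and 29.8 CPM in NI on 4 NI UMIs, and both intervals, 0.698 to 8.29 and 0.784 to 8.50, hold 1. Cebpa gave 0 UMIs in AT1-like, smooth muscle and myofibroblast-like, aerocyte-like and mesothelial-like cells in all 3 libraries. B-like cells had 0, 1 and 1 Cebpa UMIs in FLASH, CONV and NI, so Cebpa, unlike Cebpb, had next to no signal there in any library.

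Cebpg, the partner without a classical activation domain, was spread at low levels over all compartments, with 368 UMIs in FLASH, 489 in CONV and 277 in NI over the kept cells. It was called higher in 5 of 11 classes for FLASH to NI and in 3 of 13 for CONV to NI, and lower in 0, against the same background shares. Alveolar fibroblast-like cells were in both sets, with 113 CPM in FLASH, 110 CPM in CONV and 45.0 CPM in NI and ratios of 2.51 (1.21 to 5.71) and 2.44 (1.23 to 5.38). Adventitial fibroblast-like cells had 140 CPM in FLASH, 69.6 CPM in CONV and 44.9 CPM in NI, which gave 3.12 (1.19 to 10.3) for FLASH and 1.55 (0.549 to 5.37) for CONV. In the remaining called classes (interstitial macrophage-like, type 2 dendritic-like and ciliated-like for FLASH, classical monocyte-like and Mmp3-led for CONV) the interval held 1. Alveolar macrophage-like cells, at 107 CPM in FLASH, 139 CPM in CONV and 123 CPM in NI, and B-like cells, at 28.7, 20.4 and 25.0 CPM, had overlapping intervals in all 3 libraries. AT2-like cells had 55.6 CPM in FLASH, 62.2 CPM in CONV and 36.2 CPM in NI, and their ratios of 1.54 and 1.72 turned to 0.780 and 0.802 after thinning.

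**Figure D3:**
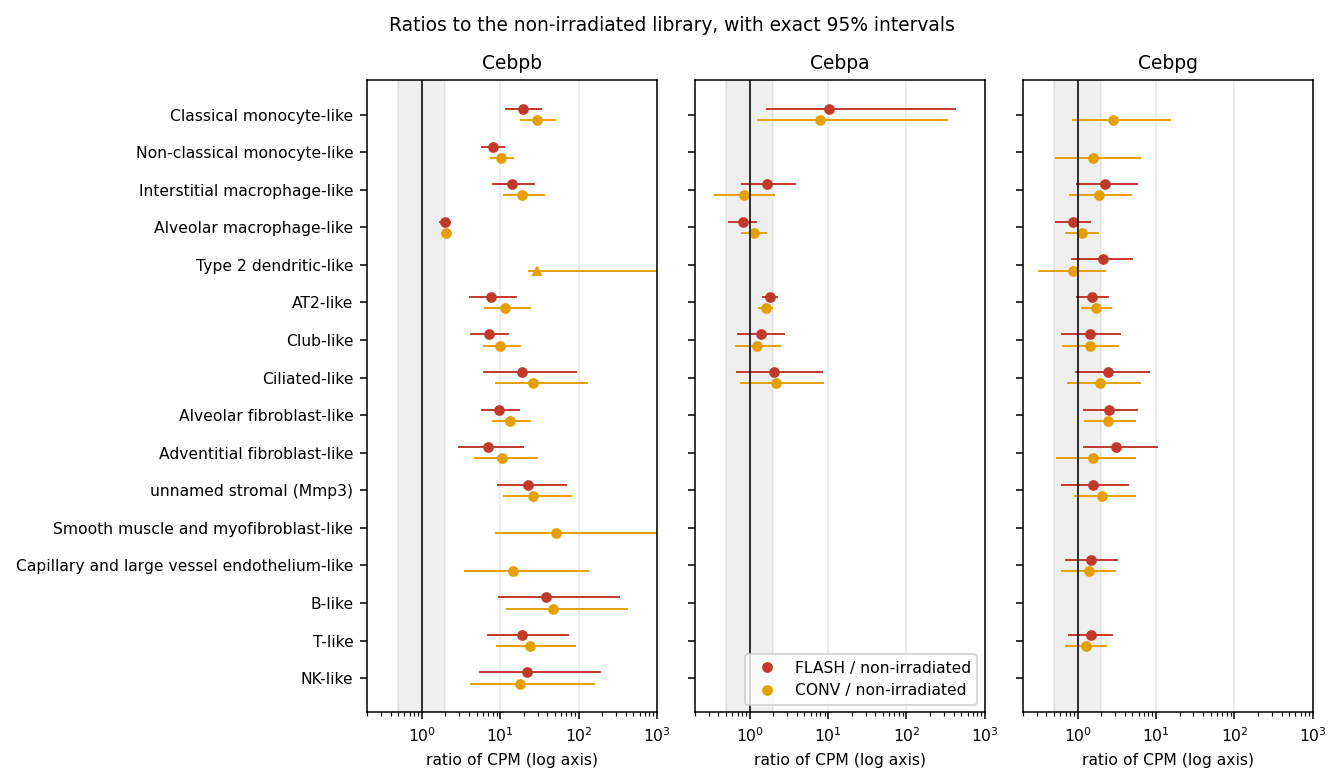
Ratio of CPM (log axis) of FLASH to NI and of CONV to NI for Cebpb, Cebpa and Cebpg in each class with at least 20 UMIs, with exact 95% intervals; the grey band spans 0.5 to 2, and a triangle is a lower bound. All Cebpb points but alveolar macrophage-like ones lie well right of the band, whereas most Cebpa and Cebpg intervals reach into it.

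FLASH was set against CONV without use of the control. Cebpb was lower in FLASH than in CONV by at least 2-fold in 2 of 16 classes and higher in 0, against 3.20% and 2.37% of all pairs, and its ratio was below 1 in 15 of the 16 classes, with the whole interval below 1 in 10. The ratio was 0.657 (0.601 to 0.718) in classical monocyte-like cells, 0.779 (0.712 to 0.853) in non-classical monocyte-like cells, 0.744 (0.634 to 0.871) in interstitial macrophage-like cells and 0.718 (0.606 to 0.848) in alveolar fibroblast-like cells. It was 0.859 (0.722 to 1.02) in the Mmp3-led class and 0.963 (0.879 to 1.06) in alveolar macrophage-like cells. The 2 classes past 2-fold were type 2 dendritic-like cells, at 0.330 (0.156 to 0.634), and endothelium-like cells, at 0.476 (0.199 to 1.07). Over all non-lymphoid cells Cebpb had 930 CPM in FLASH, 1099 CPM in CONV and 116 CPM in NI. For the free RNA transcripts above, median log2 ratios of FLASH to CONV over the tested classes were -0.50 (Sftpc), -0.13 (Mgp), -0.01 (Scgb1a1) and 0.31 (S100a8). Cebpb had -0.48, and the part of free RNA in it was not tested. With 1 library each, dose mode cannot be told apart from animal, dissociation or loading.

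For Cebpa the FLASH to CONV ratio passed 2-fold in 0 of 6 classes, and was 1.14 (0.984 to 1.32) in AT2-like cells. For Cebpg it was at least 2-fold higher in 1 of 12 classes, adventitial fibroblast-like cells, at 2.01 (1.07 to 3.90).

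**Figure D4:**
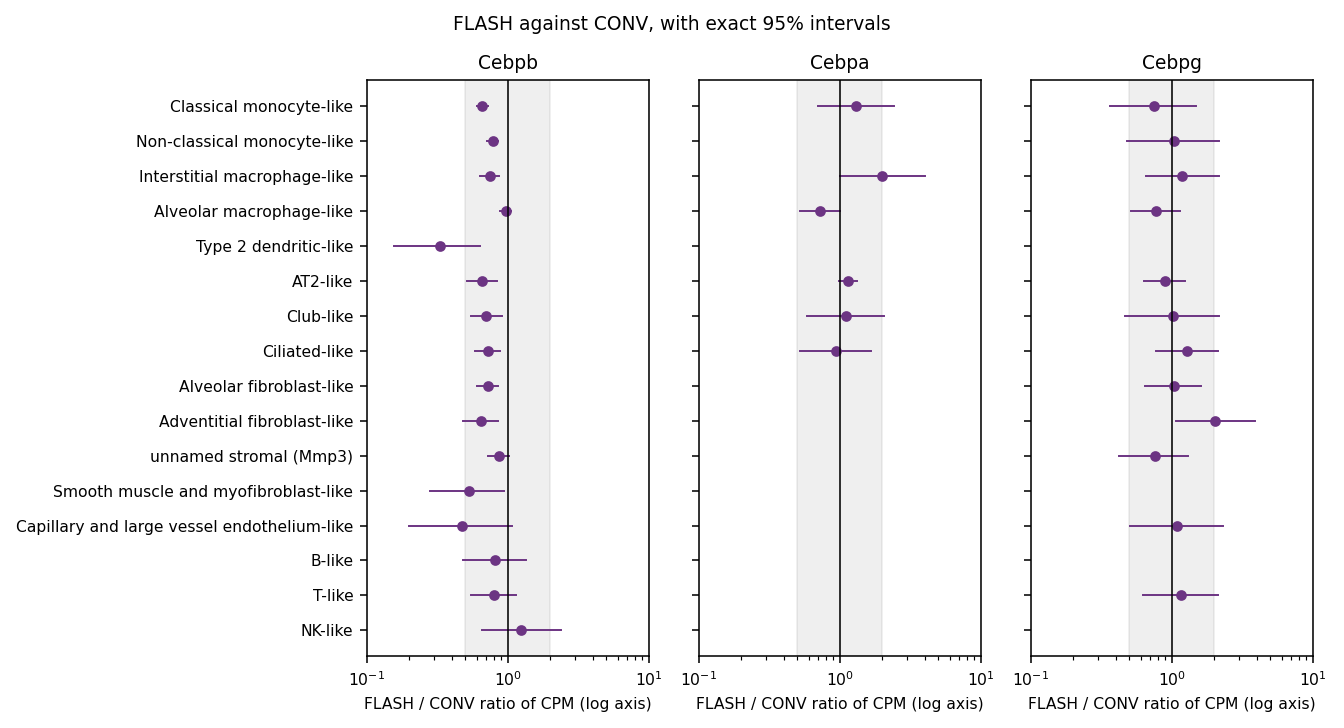
FLASH to CONV ratio of CPM (log axis) for Cebpb, Cebpa and Cebpg by class, with exact 95% intervals; the grey band spans 0.5 to 2. Cebpb points sit left of 1 in 15 of 16 classes, while Cebpa and Cebpg points fall on both sides.

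Genes with at least 20 UMIs in at least 10 classes were ordered by the median of their log2 ratio over those classes. Cebpb was picked for its pattern in these same libraries, so its places in this order are a description and not a test. Cebpb came 1st of 2006 genes for FLASH to NI, with a median log2 ratio of 3.84, and 1st of 2296 for CONV to NI, with 4.20, while the central 95% of genes lay between -0.49 and 0.61 and between -0.48 and 0.64. Medians past 2-fold higher were found for 20 genes in FLASH and 29 in CONV, and past 2-fold lower for 4 genes in each. Cebpg had 0.65 in both comparisons and came 45th and 56th. For FLASH to CONV, Cebpb came 19th from the lowest of 2225 genes with -0.48, outside the central 95% of genes (-0.31 to 0.28), and Cebpg lay inside it with 0.04. Cebpa was measured in too few classes to be ordered.

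**Figure D5:**
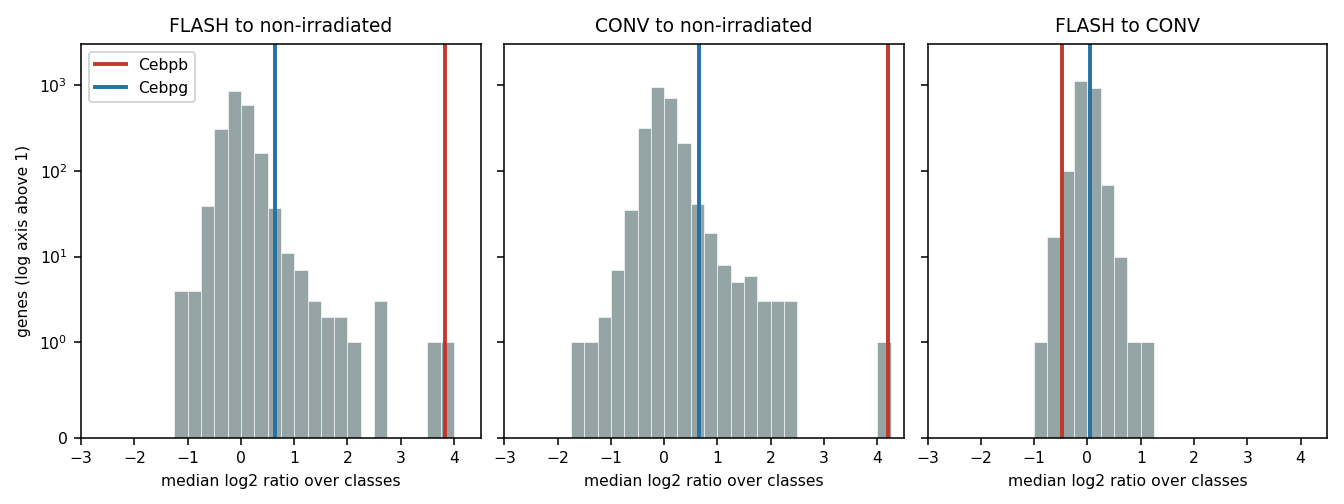
Number of genes (log axis above 1) by the median log2 ratio over classes, for FLASH to NI, CONV to NI and FLASH to CONV, with lines for Cebpb (red) and Cebpg (blue). Cebpb is the right-most gene in the 2 panels against NI, at 3.84 and 4.20, and lies in the left tail at -0.48 in the third panel. Cebpb was picked for its pattern in these libraries, so its place is a description.

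The genes called higher than NI in both irradiated libraries in the most classes were S100a8 (13 of 14), Sftpc (13 of 16), S100a9 (12 of 15), Mgp (11 of 16) and Inmt (10 of 13), beside 12 of 13 for Cebpb. Their median log2 ratios over both comparisons were 2.07, 1.47, 2.47, 2.08 and 2.03, against 4.14 for Cebpb, which was picked for its pattern. These 5 are abundant transcripts of neutrophils, AT2 cells and stroma, and were counted in classes that should lack them. Cdkn1a, a p53 target induced by radiation, was called higher in 12 of 16 classes and lower in 0 in FLASH, and higher in 10 of 16 and lower in 1 in CONV, read against the same shares of all pairs. The genes whose level followed Cebpb most closely over 48 points (16 classes in 3 libraries) were Fgd4 with Pearson r = 0.686, Pcbp1 with 0.681, Metrnl with 0.680, Ccl6 with 0.673 and Dnase1l1 with 0.653, and the points share libraries and depth. Within FLASH, CONV and NI, over 16 classes each, r was 0.884, 0.850 and 0.820 for Fgd4, 0.321, 0.505 and 0.590 for Pcbp1, 0.658, 0.750 and 0.623 for Metrnl, 0.696, 0.748 and 0.724 for Ccl6, and 0.790, 0.580 and 0.712 for Dnase1l1. Cebpg had r = 0.571 over the 48 points and 0.295, 0.592 and 0.464 within FLASH, CONV and NI, and Cebpa had r = 0.351 over the 48 points. In classical monocyte-like cells Metrnl, a secreted factor, had 562 CPM in FLASH, 653 CPM in CONV and 112 CPM in NI.

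Of the genes known as C/EBP targets in myeloid cells, most of those tested were not called in the monocyte classes. Among the 16 classes the monocyte classes had the highest Cebpb in FLASH and in CONV, and their called targets were mainly higher. Of the 28 myeloid targets, classical monocyte-like cells had 4 higher and 0 lower of 16 tested in FLASH (background 6.12% higher and 4.75% lower), and 2 higher and 1 lower of 16 in CONV (8.35% and 4.92%). S100a9 and Cxcl2 were higher in both, Lyz1 and Itgam in FLASH, and Cd14 was the one lower in CONV. The list medians on the log2 scale were 0.31 and 0.06, against -0.06 for all genes in both. The neutrophil chemokine Cxcl2 had 285 CPM in FLASH, 150 CPM in CONV and 27.9 CPM in NI in these cells, on 3 NI UMIs, with ratios of 10.2 (3.35 to 50.6) and 5.37 (1.72 to 27.0). Lyz2, the lysozyme of macrophages, had ratios of 1.07 and 0.910, and Cd14, the endotoxin co-receptor, had 1032 CPM in FLASH, 710 CPM in CONV and 1712 CPM in NI. Non-classical monocyte-like cells had 2 higher and 0 lower of 14 in FLASH (4.82% and 3.80%) and 4 higher and 0 lower of 15 in CONV (6.78% and 5.42%), with Csf1r, the receptor they need to survive, at 0.879 and 0.829. S100a8 and Cxcl2 were the genes called there in FLASH, and Lyz1, S100a8, Chil3 and Ccl3 those in CONV. Interstitial macrophage-like cells had 5 higher and 1 lower of 18 in FLASH (8.61% and 3.42%) and 3 higher and 1 lower of 15 in CONV (8.43% and 3.03%), with Itgam, S100a8 and S100a9 higher and Lyz1 lower in both, and Ptgs2 and Msr1 higher in FLASH. In Club-like cells the same list had 5 higher and 0 lower of 10 in FLASH (3.29% and 10.7%). In CONV it had 5 higher and 1 lower of 10 there (5.41% and 6.72%). Alveolar fibroblast-like cells had 3 higher and 0 lower of 4 in FLASH (4.55% and 3.85%). They had 4 higher and 0 lower of 6 in CONV (5.92% and 3.95%). AT2-like cells had 3 higher and 1 lower of 10 in FLASH (3.62% and 3.10%). They had 4 higher and 1 lower of 11 in CONV (4.62% and 2.69%). S100a8 and S100a9, named among the calls of the myeloid classes, are among the transcripts counted in classes that should lack them. Lyz1 was among the leading genes of AT2-like cells, and Chil3 among those of alveolar macrophage-like cells. The part of free RNA in these calls was not tested.

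Alveolar macrophage-like cells had 2 myeloid targets higher and 1 lower of 14 in FLASH (3.67% and 3.63%), and 2 higher and 5 lower of 14 in CONV (4.77% and 3.49%). S100a8 and S100a9 were the higher ones, Lyz1, Ccl9, Nr4a1 and Clec4e were lower in CONV, and Cxcl2 was lower in both, with 514 CPM in FLASH, 431 CPM in CONV and 1257 CPM in NI and ratios of 0.409 (0.342 to 0.488) and 0.343 (0.285 to 0.411). Cxcl2 thus had opposite directions in the 2 myeloid classes. Of 26 signals upstream of Cebpb, alveolar macrophage-like cells had 0 higher and 1 lower of 17 in FLASH and 0 higher and 2 lower of 17 in CONV. Il1b, the inflammatory cytokine, had 128 CPM in FLASH, 86.6 CPM in CONV and 311 CPM in NI, and Osm, a cytokine of the interleukin 6 family, was the other. In classical monocyte-like cells the same list had 1 higher and 2 lower of 15 in FLASH (background 6.12% and 4.75%). In CONV it had 0 higher and 1 lower of 13 (8.35% and 4.92%). Osm was lower in both, at 0.440 and 0.315, and Mapk3 was higher and Myd88 lower in FLASH. Non-classical monocyte-like cells had 1 higher of 11 in FLASH (4.82%) and 3 higher of 12 in CONV (6.78%), with 0 lower (3.80% and 5.42%). The genes were Socs3, a feedback inhibitor of cytokine signalling, in both, and Il6ra and Stat3 in CONV.

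Among epithelial targets, AT2-like cells had 0 higher and 0 lower of 16 in both comparisons (background 3.62% and 3.10% in FLASH, 4.62% and 2.69% in CONV). The surfactant genes Sftpc, Sftpa1 and Sftpb had ratios of 0.940, 1.03 and 0.917 in FLASH and 0.907, 1.04 and 0.950 in CONV. Acute phase targets were on the low side instead. AT2-like cells had 0 higher and 2 lower of 7 in each comparison: Lrg1, a secreted glycoprotein, had 309 CPM in FLASH, 239 CPM in CONV and 815 CPM in NI, and Itih4, a plasma protease inhibitor chain, 77.3, 89.5 and 241 CPM. In Club-like cells Saa3, an acute phase apolipoprotein, had 3 UMIs in FLASH, 1 in CONV and 105 in NI, with ratios of 0.0356 (0.00722 to 0.107) and 0.00909 (0.000228 to 0.0517). That class had 0 higher and 1 lower of 7 in FLASH (3.29% and 10.7%) and 0 higher and 2 lower of 7 in CONV (5.41% and 6.72%), and Pigr was the other gene in CONV. Epithelial targets in Club-like cells were higher in 4 and lower in 0 of 13 in FLASH, and higher in 7 and lower in 0 of 15 in CONV. The 4 in FLASH were Sftpc, Scd1, Cyp2b10 and Foxa2, which were also among those in CONV. In classical monocyte-like cells the same epithelial list had 3 higher and 0 lower of 4 in FLASH (background 6.12% and 4.75%). In CONV it had 5 higher and 0 lower of 6 there (8.35% and 4.92%). Alveolar macrophage-like cells had 3 higher and 0 lower of 8 in FLASH (3.67% and 3.63%). They had 4 higher and 0 lower of 9 in CONV (4.77% and 3.49%). Both classes should lack surfactant transcripts. The part of free RNA in these counts was not tested.

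The remaining lists were read against 3.29% to 8.61% of all genes called higher and 2.69% to 10.7% called lower over the 7 classes and both comparisons. Of 25 genes of the integrated stress response, with which Cebpg and Cebpb are linked, AT2-like cells had 2 higher (Wars and Vldlr) and 1 lower of 12 in FLASH and 2 higher (Sesn2 and Cars) and 2 lower of 14 in CONV. Nupr1, a stress-induced chromatin protein, was lower in both, with 265 CPM in FLASH, 294 CPM in CONV and 597 CPM in NI, and Ddit3 was the other. In the same list, alveolar fibroblast-like cells had 0 called of 10 in FLASH (background 4.55% higher and 3.85% lower) and 0 of 11 in CONV (5.92% and 3.95%). Of 14 bZIP partners, classical monocyte-like cells had 1 higher and 1 lower of 10 in FLASH and 2 higher and 2 lower of 11 in CONV. Jund had 838 CPM in FLASH, 753 CPM in CONV and 223 CPM in NI, with ratios of 3.75 (2.46 to 5.99) and 3.37 (2.21 to 5.37), while Atf4, the stress-induced partner of Cebpg, had 98.9, 93.3 and 205 CPM. The other genes called there in CONV were Batf3, which was higher, and Fosb, which was lower. Of 14 adipogenic targets, 4 could be tested in alveolar fibroblast-like cells, with 0 calls in both comparisons, and the 9 regulators of C/EBP protein amount gave at most 1 higher and 1 lower in any of 7 classes. Of the tissue dissociation genes, which respond to enzymatic digestion, 0 to 2 were higher and 0 to 4 lower of 17 to 21 tested in these 7 classes. The most lower calls, 4 of 17 (Egr1, Ier2, Zfp36 and Nfkbia), were in non-classical monocyte-like cells in CONV, where 5.42% of all genes were lower, and the most higher calls were 2 of 18 in FLASH and 2 of 19 in CONV in classical monocyte-like cells, against 6.12% and 8.35%. Fos had 1830 CPM in FLASH, 1540 CPM in CONV and 2073 CPM in NI in AT2-like cells. Of 3 other C/EBP-like genes, Cebpe had 0 UMIs in FLASH, 15 in CONV and 1 in NI over the kept cells, Cebpz was called higher in 1 of 14 classes in FLASH and 1 of 13 in CONV, and Ddit3 lower in 1 of 7 and 1 of 6.

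Of the chromosome neighbours other than members, Slc7a10 was called in most of its few tested classes, and the others in at most 1 class per comparison. Of all gene and class pairs, 4.63% were called higher and 5.82% lower in FLASH, and 5.65% and 5.39% in CONV. Tmem189, which overlaps Cebpb on the opposite strand, was higher in 0 of 5 classes and lower in 1 in FLASH, and 0 and 0 of 6 in CONV, with 40.8 CPM in FLASH, 40.0 CPM in CONV and 33.7 CPM in NI over the non-lymphoid cells. The sources used here do not state the strand setting of the counting, so reads of the overlap cannot be told apart. A530013C23Rik, 759 bases beyond Cebpb, had 37 UMIs in all kept cells and was not tested. Next to Cebpa, the amino acid transporter gene Slc7a10 was higher in 0 and lower in 1 of 2 classes in FLASH and in 2 of 2 in CONV. On the other side of Cebpa lies Cebpg, whose calls are given above. Next to Cebpg, the dipeptidase gene Pepd was higher in 0 of 7 classes in FLASH and 1 of 9 in CONV, and lower in 0.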

How the data were processed

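Whole-number UMI counts per gene and barcode were deposited by the authors for 3 libraries, made with Cell Ranger 2.0 on mm10, per the submitters' processing notes. Gene names came from the files; positions came from GENCODE M21 and promoter sequences from RefSeq GRCm38.p6. A barcode needed at least 200 genes and no more than 10% mitochondrial UMIs (50 failed on genes, 154 on mitochondrial share). Doublets were scored with Scrublet in each library, and the highest scores, 121 at a rate of 0.8% per 1000 barcodes, were removed, since the automatic threshold marked 52 (0.781%). The 6337 kept cells, 2250 FLASH, 2384 CONV and 1703 NI, were scaled to 10000 UMIs and log transformed, and Leiden clustering at resolution 1 used 2000 variable genes without the members, 30 principal components and 15 nearest neighbours. Classes are named from markers (at least 3 markers in 10% of cells and 2-fold above the rest); these limits were set after the data were seen, and naming differs from any the study may have used. Levels carry exact Poisson intervals, ratios exact conditional binomial intervals and shares exact Clopper-Pearson intervals, at 95%. Pearson r used log2(CPM + 10) over genes with at least 200 UMIs. The ratio and call functions were tested on simulated data.

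The members and gene lists were chosen with earlier results of these data known. Named are the members, the 5 genes with the highest r, the 5 called higher in both comparisons in the most classes, up to 4 members of a list with the most UMIs in a class, and chromosome neighbours; ribosomal, mitochondrial, haemoglobin, immunoglobulin, T cell receptor, sex-linked and predicted genes stayed out of the second and the third choice. List genes named because they were called (such as Cxcl2, Il1b, Saa3 and Jund), Csf1r, Cdkn1a, Gm26870 and the genes for free RNA were picked outside that rule, with values seen. Alternatives covered the mitochondrial limit, doublets, gene limit, resolution, members in the variable genes, scaling total, mean over cells, thinning, pseudocount and UMI minimum. The software was scanpy 1.11.5 with igraph 0.11.9 and anndata 0.12.19, scipy 1.17.1 with numpy 2.4.6, matplotlib 3.10.9 and pandas 2.3.3, under Python 3.11.15.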

Additional observations from a re-analysis of the deposited data

Results flagged for a closer look

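The FLASH to CONV ratio of Cebpa was 1.98 in interstitial macrophage-like cells (133 CPM in FLASH and 67.1 CPM in CONV) and 0.722 in alveolar macrophage-like cells (156 CPM in FLASH and 217 CPM in CONV). The pair was picked out because both intervals lie on opposite sides of 1, at 1.01 to 4.02 and 0.521 to 0.995. The difference between the classes was not tested.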

How the results depend on the processing

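No class count and no called ratio reversed under the alternatives run, while ratios not called crossed 1 in 26 of 523 cases, the Cebpg ratios of AT2-like cells after thinning among them. Class counts within 1.5 times of the reported ones made up 71, and 9 moved. Cebpg was called higher in FLASH than in NI in 3 of 10 classes at a 5% mitochondrial limit (reported 5 of 11). Without doublet removal Cebpa was called in 1 of 6 classes in FLASH and in 1 of 6 in CONV (reported 2 of 6). By the mean over cells, Cebpg was higher in FLASH than in CONV in 0 of 12 classes (reported 1). Thinned to 1000 UMIs, fewer classes reached 20 UMIs: Cebpa was called in 0 of 2 in FLASH and in CONV, Cebpg in 1 of 5 in each, and Cebpb was lower in FLASH than in CONV in 1 of 14 (reported 2 of 16). With a pseudocount of 1 CPM, 2 of the 5 genes nearest to Cebpb by level stayed among the 5. Single ratios stayed within the reported interval in 896 cases, bounds against the floor included, and moved in 21. Cebpg in T-like cells moved most often: it was 2.37 to 2.49 for FLASH to CONV under 6 alternatives (reported 1.16), and 0.441 for FLASH to NI and 0.231 for CONV to NI at resolution 2 (reported 1.46 and 1.26). The cause was not tested. Leaving out a library was not possible with 1 per group. No paired analysis was possible because each group had 1 library. Depth limits the ratios to NI: control counts in the called classes were 1 to 4 UMIs for Cebpa, 3 to 14 for Cebpg and 0 to 260 for Cebpb.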

Other observations

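In the order of median log2 ratios for FLASH to NI, the predicted gene Gm26870 came 2nd with 3.71, beside 3.84 for Cebpb. Dbp, a bZIP factor whose transcript follows the daily clock, came 3rd of 2006 genes there (2.67). For CONV to NI Dbp came 2nd of 2296 (2.47). A list of 15 clock genes, chosen after this was seen, was therefore read over the non-lymphoid cells. Dbp had 189 CPM in FLASH, 187 CPM in CONV and 45.6 CPM in NI, with ratios of 4.14 (3.49 to 4.94) and 4.10 (3.47 to 4.87). Its relative Tef had 67.2, 60.8 and 25.1 CPM, and Per3, of the negative arm of the clock, 67.4, 76.2 and 28.0 CPM. Arntl and Npas2, of the positive arm, lay the other way, with 16, 27 and 36 UMIs for Arntl and 4, 3 and 19 UMIs for Npas2 in FLASH, CONV and NI. Per1 and Nr1d1, with ratios of 1.32 and 1.29 in FLASH and 1.17 and 1.41 in CONV, were not past 2-fold. In all, 4 of the 15 genes were at least 2-fold higher and 2 lower in FLASH, and 6 higher and 2 lower in CONV, against 3.67% higher and 4.11% lower of all genes in FLASH and 3.38% and 4.02% in CONV. Between FLASH and CONV 0 of 14 were called either way. The sources used here do not state the hour at which lungs were taken, and the part of it in the Cebpb values was not tested.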
